A study of Mus musculus with 47 samples.

Results

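The hypothalamic response to FGF1 at 5 days was measured in 16 of the 47 libraries of a study of obese, leptin-deficient Lep^ob/ob mice. These are all 9 libraries labelled FGF1 and Day 5 and the 7 libraries of the same day whose label reads vehicle and non-diabetic, chosen by label and not by any measured value. Each library holds mRNA of the hypothalamus of 1 male mouse aged 11 weeks. FGF1-treated mice had received a single intracerebroventricular (icv) injection of 3 µg of FGF1, and the controls an icv injection of vehicle with food restricted to the intake of the FGF1-treated mice. All of the mice are labelled ob/ob, the controls included, so that no group here carries an intact leptin gene, and "non-diabetic" is the label's word for mice of this genotype. The study's methods exclude mice under a glucose limit as not diabetic and count 7 vehicle-treated mice at this time where the labels hold 14, so what the word records, and which 7 were used there, cannot be told from them. A further 7 vehicle-treated, pair-fed mice of Day 5 are labelled diabetic and serve as a comparison, and 10 FGF1-treated and 4 vehicle-treated mice of Day 1 show where the effect at 5 days differs from that at 1 day.

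Total counts ran from 7695346 to 30009258 in the FGF1-treated mice and from 8005968 to 9864890 in the vehicle-treated mice. FGF1 replicates 8 and 9, with 30009258 and 27922117 counts, are the deepest, and the other FGF1 libraries lie in the range 7695346 to 9739244. In the library with the lowest total, 1 normalized count (CPM, after scaling by TMM) stands for 7.98 raw counts. Of the 14221 genes in the table, the median gene varied between mice by a standard deviation of 0.11 on the log2 scale in either group, and by 0.19 to 0.24 in the groups of the other days, which enter the same fit. The 23 libraries of Day 5 share 1 preparation code, which is not that of the other days, so the FGF1 effect of Day 5 lies within a code and its difference from Day 1 does not. What the code stands for is not stated.

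The labelled tissue was checked against genes that define it. The hypothalamic regulators Nkx2-1, Sim1, Otp and Nr5a1 and the lateral hypothalamic peptides Hcrt and Pmch were all present, Hcrt at 42.1 to 57.4 (median 54.8) with FGF1 against 50.8 to 69.9 (median 54.5) with vehicle. Prkcd, a gene of thalamic neurons, was counted at 38.7 to 168 (median 79.4) with FGF1 against 68.3 to 135 (median 98.1) with vehicle. Ppp1r1b, of striatal neurons, was counted at 16.9 to 61.6 (median 24.5) with FGF1 against 17.6 to 96.2 (median 48.3) with vehicle. Both genes varied between mice of both groups, and how much of neighbouring regions each dissection carried was not tested. The table lacks the tanycyte gene Rax, the choroid plexus genes Ttr and Folr1, the cortical gene Neurod6, the pituitary hormones Gh and Prl, the T cell gene Cd3e and the neutrophil gene S100a8. Whether they were absent from the tissue or were removed from the table is not stated.

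FGF1 is a secreted ligand of the FGF receptors, which signal through the ERK cascade and are carried in this tissue by astrocytes, by tanycytes lining the third ventricle and by other glia. Astrocytes respond to injury and to cytokines by raising the filament gene Gfap and secreting protease inhibitors. Oligodendrocytes form from dividing precursors by way of a committed stage marked by Gpr17 and Bmp4 and a newly formed stage marked by Enpp6, before they make myelin. Microglia are the resident phagocytes and the main source of C1q in the brain.

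At 5 days after FGF1, many genes of glia were higher, and in the fit of all libraries no list of neuronal genes held a gene past both thresholds. Most genes of newly forming oligodendrocytes and some genes of reactive astrocytes, of myelin and of microglia rose, while a short list of genes fell, among them those for the cortisone-activating enzyme Hsd11b1 and the citrate transporter Slc13a5. A gene is called differentially expressed (DEG) here with an adjusted p under 0.05 (edgeR quasi-likelihood test, Benjamini-Hochberg over all genes) and an absolute log2 fold change above 0.5. List genes at an unadjusted p under 0.05 are counted without the share of all genes, and are not read as few or many. Of the 14221 genes, 219 (1.54%) were DEGs, 186 (1.31%) with higher and 33 (0.232%) with lower counts after FGF1, and 661 (4.65%) had an adjusted p under 0.05 at any fold by edgeR. By that adjusted p, 3.25% of all genes were higher and 1.40% lower. Counts of DEGs in a list that are given below without a share are to be set beside these shares. With only the 23 libraries of Day 5 there were 370 DEGs (303 higher and 67 lower), with only the 16 libraries compared 372, and with limma 438. Among the 186, all 9 FGF1-treated mice lay above all 7 vehicle-treated mice for 104, and among the 33, all lay below for 13, where 2.38% and 1.55% of all genes do so. Only 33 higher and 7 lower DEGs had an absolute log2 fold change above 1, and the median of the higher DEGs was 0.67. Over all genes the median log2 fold change was -0.01, and 47.8% were above 0. On the first principal component, which holds 26.6% of the variance of the 16 libraries, all 9 FGF1-treated mice took positive and all 7 vehicle-treated mice negative values. Throughout, a smaller number of cells of a type and less RNA per cell cannot be told apart in such tissue samples.

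**Figure D1:**
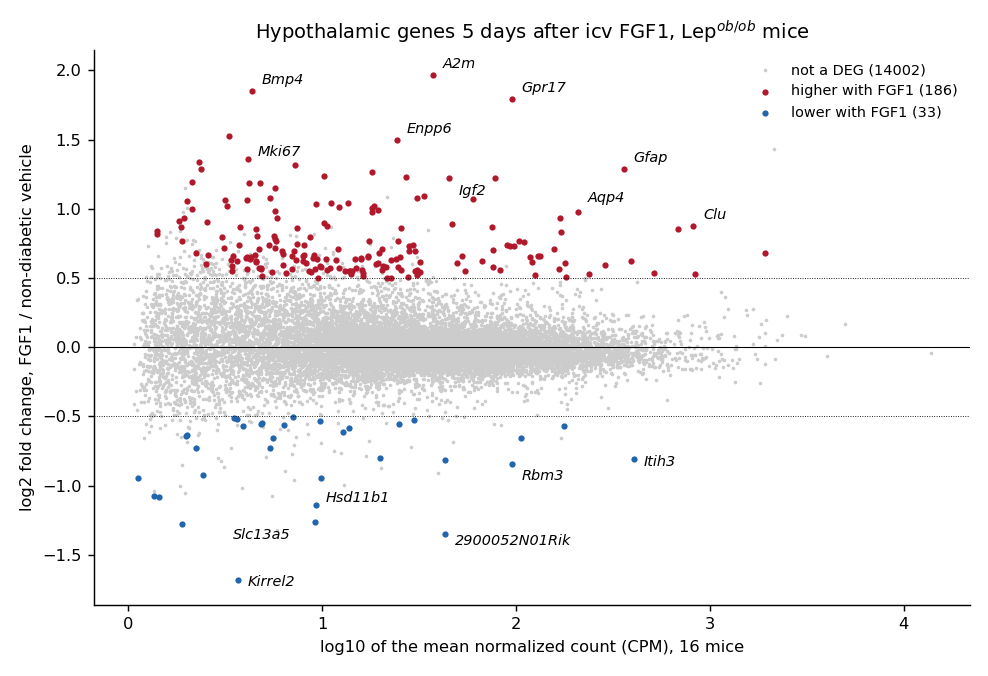
Each point is 1 of the 14221 genes, with the log10 of its mean normalized count (CPM) in the 16 mice on the horizontal axis and its log2 fold change between FGF1-treated and non-diabetic vehicle-treated mice on the vertical axis. The 186 DEGs with higher counts are red, the 33 with lower counts are blue, and dotted lines mark log2 fold changes of 0.5 and -0.5. A2m, Bmp4 and Gpr17 lie at the top and Kirrel2 at the bottom, and Clu is changed at high counts.

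In the fit of all libraries, the list of pan-reactive astrocyte genes had the highest median log2 fold change of all lists. Without the 2 deepest FGF1 libraries its median was 0.951, under the 0.960 of the meningeal fibroblast genes. Among 10 genes induced in reactive astrocytes of several kinds, 7 were DEGs and all 7 were higher (Timp1, Cd44, Osmr, Serpina3n, Aspg, Vim and Gfap), against 1.31% of all genes. Their median log2 fold change was 0.95. The summed level of the 10 genes was 677 to 1010.4 (median 858) with FGF1 against 267 to 449 (median 376) with vehicle, and Gfap gives most of it per length of transcript. Gfap, the astrocyte intermediate filament protein (chr11:102887336-102900912 on GRCm38, minus strand), ran from 399.6 to 644 in the 9 mice given FGF1 (median 519) and from 133 to 254 in the 7 vehicle-treated mice (median 208). All of the treated mice thus lay above all controls, the nearest being FGF1 replicate 9 at 399.6 and vehicle replicate 2 at 254, and the log2 fold change was 1.29 ± 0.14 (SE). A2m, which encodes the broad protease inhibitor alpha-2-macroglobulin (chr6:121635376-121679227), was counted from 48.4 to 73.0 in the 9 mice given FGF1 (median 53.7) and from 10.22 to 22.9 in the 7 vehicle-treated mice (median 14.1). The groups were separated by a wide gap, with a log2 fold change of 1.96 ± 0.14 (adjusted p = 3.58e-14 by edgeR). Osmr, a receptor subunit for oncostatin M, showed a median of 11.1 (range 9.58 to 20.5) with FGF1 and of 6.36 (range 4.23 to 7.76) with vehicle. Aspg, an asparaginase, showed a median of 11.0 (range 5.85 to 14.9) with FGF1 and of 3.88 (range 2.16 to 6.23) with vehicle, with 8 of 9 treated mice above all controls. Timp1, an inhibitor of metalloproteases, was counted at only 2.50 to 4.55 (median 3.06) with FGF1 against 0.580 to 2.03 (median 1.39) with vehicle. Its groups did not overlap, yet its call in the edgeR fit (adjusted p = 0.0454) was lost, at a p of up to 0.120, on leaving out any of FGF1 replicates 2, 3, 4, 5, 6 and 8 or vehicle replicates 2, 3, 4, 5 and 7.

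Genes that mark the response of astrocytes to ischemia or to bacterial lipopolysaccharide (LPS) were raised in part. Of 8 ischemia-type genes, 3 were higher DEGs (Cd109, Emp1 and Cd14), against 1.31% of all genes. All 8 had a log2 fold change above 0, with a median of 0.50. Cd109, a surface protein that binds TGF-beta, ran at 13.03 to 23.8 (median 14.9) with FGF1 against 6.20 to 10.7 (median 8.12) with vehicle, with no overlap. Emp1, an epithelial membrane protein, was counted at 3.24 to 6.69 (median 4.37) with FGF1 against 1.67 to 4.29 (median 2.50) with vehicle, where 6 of 9 treated mice lay above all controls. Its call was lost without FGF1 replicate 6 or vehicle replicate 3, 5 or 7 (adjusted p up to 0.0835 by edgeR), and that of Cd14, the LPS co-receptor, without FGF1 replicate 4, 6 or 8 or vehicle replicate 1, 3, 6 or 7 (up to 0.0862). S100a10 was not a DEG, at 16.6 to 23.2 (median 17.6) with FGF1 against 14.4 to 16.8 (median 15.5) with vehicle. Of 11 LPS-type genes, 3 were higher DEGs (Serping1, Ggta1 and Fbln5), against 1.31% of all genes. The median of the list was -0.12. Fbln5, an elastic fibre protein, ran from 25.8 to 61.2 in the 9 mice given FGF1 (median 39.6) and from 17.0 to 24.8 in the 7 vehicle-treated mice (median 19.7). That is a log2 fold change of 1.08 ± 0.16 without overlap between the groups. Ggta1, a galactosyltransferase, showed a median of 15.3 (range 14.003 to 19.7) with FGF1 and of 11.0 (range 8.81 to 14.4) with vehicle, and its fold change fell below the threshold without vehicle replicate 4 (log2 fold change 0.50), which left 1 DEG in the list. Other members of the LPS list are MHC class I genes, which were high in vehicle replicate 2, and without that mouse the list's median was 0.30.

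Genes that astrocytes express at rest did not fall. Of 26, only Aqp4 passed both thresholds, but 8 had an adjusted p under 0.05 by edgeR at any fold and all 8 were higher, against 3.25% of all genes, with a list median of 0.14. The 8 are Aqp4, Slc1a3, Gja1, Ndrg2, Sparcl1, Sox9, Mlc1 and S100b, of which those other than Aqp4 and Sparcl1 are named after their values were seen. The summed level of the 26 genes was 13923 to 14686 (median 14254) with FGF1 against 12337 to 13229.7 (median 12983) with vehicle, so each treated mouse lay above each control. Aqp4, the water channel of astrocyte endfeet (chr18:15389496-15410982), was counted from 237 to 358 in the 9 mice given FGF1 (median 275) and from 116 to 184 in the 7 vehicle-treated mice (median 143). Its lowest treated mouse, FGF1 replicate 4, exceeded the highest control. Mlc1, a membrane protein of the same endfeet, ran at 257 to 299 (median 284) with FGF1 against 186 to 227 (median 215) with vehicle, a log2 fold change of 0.41, and Gja1, the gap junction protein connexin 43, at 167 to 220.4 (median 198) with FGF1 against 141 to 162 (median 151) with vehicle, a change of 0.37. Ndrg2, an abundant astrocyte gene, showed a median of 1281 (range 1245 to 1420.2) with FGF1 and of 991 (range 930.1 to 1018) with vehicle. None of these 3 groups of values overlapped, although the changes stayed under the fold threshold. Slc1a3, the glutamate and aspartate transporter GLAST, had a log2 fold change of 0.23.

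Among genes of cells that line the ventricle 1 passed both thresholds. Of 16 tanycyte genes, 1 was a DEG, against 1.54% of all genes. Gpr50, an orphan receptor related to melatonin receptors that tanycytes carry (chrX:71663667-71669257), ran from 9.91 to 16.6 in the 9 mice given FGF1 (median 13.4) and from 6.19 to 8.58 in the 7 vehicle-treated mice (median 6.91). Every treated mouse exceeded every control, at a log2 fold change of 0.90 ± 0.15 (adjusted p = 3.26e-05 by edgeR). The median of the tanycyte list was 0.08, and Ptn, its most abundant member per length, was at 121 to 150.0 (median 131) with FGF1 against 121 to 143 (median 130.4) with vehicle. None of 24 genes of the motile cilium of ependymal cells was a DEG by edgeR or DESeq2, with 7 at an unadjusted p under 0.05, whereas against the diabetic vehicle group 4 were higher DEGs by edgeR and the median was 0.34. In 20 of the 24 the log2 fold change was above 0, with a median of 0.16, and Foxj1, the regulator of motile cilia named after its values were seen, was at 24.2 to 32.7 (median 27.4) with FGF1 against 18.8 to 22.6 (median 21.7) with vehicle. Outside that list, Dnajb13, a radial spoke protein of cilia and sperm tails, was a DEG at 1.95 to 4.55 (median 2.76) with FGF1 against 0.524 to 2.08 (median 1.21) with vehicle, but its exons overlap those of Ucp2 on the other strand and the strand setting of the counting is not stated. Of 9 choroid plexus genes none was a DEG by edgeR or DESeq2 and 1 had an unadjusted p under 0.05, with a median of 0.13. Enpp2, the lysophospholipase that makes lysophosphatidic acid and is also expressed by oligodendrocytes, was at 221 to 287 (median 273) with FGF1 against 156 to 227 (median 182) with vehicle without passing the test (adjusted p = 0.245 by edgeR, unadjusted exact permutation p = 0.000262).

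The oligodendrocyte lineage held higher DEGs at each stage. Of 13 genes of the committed and newly formed stages, 9 were DEGs and all 9 were higher, with a median of 0.62, while 1 of 17 precursor genes (Neu4, median 0.14) and 8 of 25 myelin genes (median 0.29) were. Of all genes, 1.31% were higher DEGs. The summed level of the committed and newly formed genes was 711 to 898 (median 822) with FGF1 against 429.9 to 518 (median 457) with vehicle. Gpr17, a receptor that marks committed precursors (chr18:31942997-31949636), ran from 116 to 176 in the 9 mice given FGF1 (median 147) and from 38.6 to 48.0 in the 7 vehicle-treated mice (median 43.1). The lowest treated mouse was thus far above the highest control. The exons of Gpr17 overlap those of Lims2 on the other strand, and Lims2 was itself a DEG, at 13.7 to 21.0 (median 18.6) with FGF1 against 7.91 to 9.87 (median 8.82) with vehicle. Bmp4, a secreted ligand made by the same cells (chr14:46383520-46390669), was counted at 4.97 to 9.53 (median 6.01) with FGF1 against 0.878 to 2.62 (median 1.74) with vehicle, low values whose groups did not overlap. Enpp6, a choline phosphodiesterase of oligodendrocytes that are just forming (chr8:46986887-47096762), ran from 27.5 to 46.5 in the 9 mice given FGF1 (median 38.5) and from 9.18 to 17.8 in the 7 vehicle-treated mice (median 11.2). The treated mice all lay above the controls, and the log2 fold change was 1.499 ± 0.22 with an adjusted p of 3.22e-06 by edgeR. Bcas1, an early myelin gene whose exons overlap Bcas1os1 and Bcas1os2, showed a median of 224 (range 183 to 248) with FGF1 and of 116 (range 101 to 154) with vehicle. Fyn, a kinase that starts myelination and is also expressed by neurons, was raised at 130.4 to 157 (median 146) with FGF1 against 81.6 to 96.3 (median 93.6) with vehicle, and Itpr2, an intracellular calcium channel, at 84.7 to 96.2 (median 90.6) with FGF1 against 55.8 to 68.6 (median 59.6) with vehicle. Nkx2-2, Ust and Kif19a complete the 9, and Fyn, Itpr2, Nkx2-2, Ust and Kif19a are named after their values were seen.

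Of the precursor genes 1 passed both thresholds, while the summed level of the 17 was 1353 to 1462 (median 1375) with FGF1 against 1104 to 1282 (median 1176) with vehicle. Pdgfra, the receptor that defines the precursors, was at 82.1 to 105 (median 97.6) with FGF1 against 83.5 to 93.3 (median 91.1) with vehicle (adjusted p = 0.674 by edgeR). Neu4, a sialidase, ran from 19.0 to 27.4 in the 9 mice given FGF1 (median 21.8) and from 10.5 to 15.6 in the 7 vehicle-treated mice (median 12.9). All of its treated values exceeded the controls, and its highest, 27.4, was that of FGF1 replicate 4. Olig2, Tnr and Sox6 had adjusted p under 0.05 by edgeR at log2 fold changes of 0.44, 0.50 and 0.39, under the fold threshold. They are named after their values were seen, and leaving out FGF1 replicate 1, 2, 3, 5 or 7 or vehicle replicate 2 or 3 gave 2 DEGs in the list.

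Myelin genes rose in a subset. Mal, a raft protein of compact myelin (chr2:127633226-127656695), was counted from 410.5 to 548 in the 9 mice given FGF1 (median 478) and from 276 to 349.6 in the 7 vehicle-treated mice (median 305). The groups did not overlap and the log2 fold change was 0.62 ± 0.13 (adjusted p = 0.00151 by edgeR). Ugt8a, which makes the galactolipids of myelin, ran at 108 to 166 (median 141) with FGF1 against 69.4 to 102 (median 74.3) with vehicle. Cnp, Fa2h, Apod and Cryab were also higher DEGs, with log2 fold changes of 0.54, 0.50, 0.60 and 0.61, and are named after their values were seen. The call of Cldn11, a tight junction protein of the sheath at 195 to 237 (median 211) with FGF1 against 122 to 160.0 (median 142) with vehicle, was lost on leaving out any library except FGF1 replicate 3, with an adjusted p of up to 0.102 by edgeR. Leaving out FGF1 replicate 8 or vehicle replicate 3 left 5 DEGs in the list. Mog and Mag, at log2 fold changes of 0.29 and 0.08, did not pass the test. Among DEGs outside the lists, also named after their values were seen, were the semaphorin receptor Plxnb3 at 52.9 to 66.3 (median 60.5) with FGF1 against 28.9 to 38.4 (median 31.8) with vehicle, the deacetylase Sirt2 of myelin at 101 to 123 (median 115) with FGF1 against 59.8 to 73.6 (median 68.9) with vehicle and the oligodendrocyte regulator Zfp488 at 8.14 to 11.6 (median 9.37) with FGF1 against 3.93 to 7.63 (median 5.14) with vehicle, all without overlap.

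**Figure D2:**
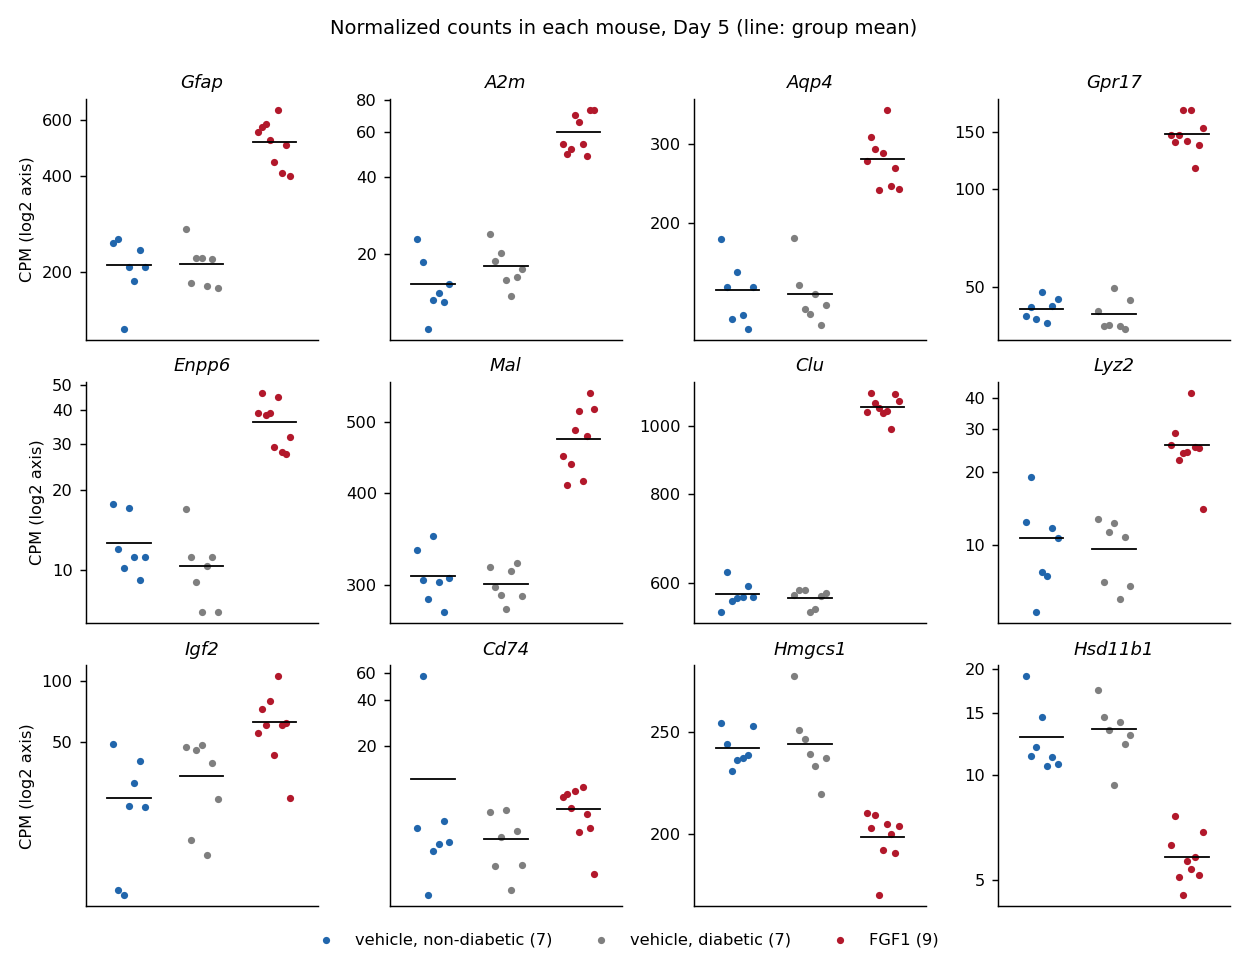
Normalized counts (CPM, log2 axis) of 12 genes in each mouse of Day 5, as 1 point a mouse, for 7 non-diabetic vehicle-treated (blue), 7 diabetic vehicle-treated (grey) and 9 FGF1-treated mice (red), with the group mean as a line. The FGF1 points of Gfap, A2m, Aqp4, Gpr17, Enpp6, Mal and Clu lie above, and those of Hmgcs1 and Hsd11b1 below, all points of both vehicle groups, while for Cd74 vehicle replicate 2 of the non-diabetic group stands apart at 57.4.

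Few microglial genes passed both thresholds, and 1 control mouse bears on how many. All 18 homeostatic microglia genes had a log2 fold change above 0, with a median of 0.32, 7 had an adjusted p under 0.05 by edgeR (among them Tmem119, Cx3cr1, Csf1r, Fcrls, Olfml3 and Tyrobp) and 2 were DEGs. Those other than Fcrls and Olfml3 are named after their values were seen. Of all genes, 3.25% were higher by adjusted p and 1.31% were higher DEGs. Fcrls, a Fc receptor-like protein of microglia (chr3:87250758-87263738), ran from 12.2 to 18.4 in the 9 mice given FGF1 (median 13.9) and from 3.81 to 8.45 in the 7 vehicle-treated mice (median 5.56). Olfml3, a secreted protein of the same cells, showed a median of 26.7 (range 21.7 to 29.3) with FGF1 and of 12.6 (range 8.85 to 19.9) with vehicle, and neither gene's groups overlapped. Vehicle replicate 2 carried high counts of immune genes, with 147 for the microglial protease Ctss where the group's median is 58.6, 192 for the MHC class I light chain B2m where it is 60.1, and 57.4 for the MHC class II chaperone Cd74 where it is 4.61. What set this mouse apart was not tested. Without it, 6 of the 18 microglial genes were DEGs and their median was 0.47, and Ctss, not a DEG with all mice (0.32 ± 0.12), reached a log2 fold change of 0.60 (adjusted p = 2.55e-07 by edgeR). The purinergic receptor P2ry12 was at 30.7 to 39.2 (median 36.1) with FGF1 against 26.8 to 41.9 (median 32.6) with vehicle.

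Other myeloid genes were raised singly. Lyz2, the lysozyme of myeloid cells, ran from 14.1 to 42.0 in the 9 mice given FGF1 (median 24.9) and from 5.31 to 19.0 in the 7 vehicle-treated mice (median 10.7), with 8 of 9 treated mice above all controls and FGF1 replicate 9 below vehicle replicate 2. It was the only DEG of 13 activated phagocyte genes, whose median was 0.30, and there were 2 without FGF1 replicate 4, 5 or 9 or vehicle replicate 2 or 7. Apoe, the most abundant of them per length and an astrocyte gene as well, was at 1428 to 1893 (median 1669) with FGF1 against 1362 to 1471 (median 1418) with vehicle (adjusted p = 0.435 by edgeR, unadjusted exact permutation p = 0.000699). Fcgr2b, the inhibitory receptor for IgG, was a DEG at 4.38 to 8.94 (median 5.38) with FGF1 against 1.28 to 5.60 (median 1.89) with vehicle. Of 5 genes of border macrophages, Stab1 passed, a scavenger receptor at 17.0 to 22.1 (median 19.8) with FGF1 against 11.2 to 15.8 (median 13.5) with vehicle whose exons overlap Nt5dc2, and the call was lost without vehicle replicate 3 or 5 (adjusted p up to 0.0631 by edgeR). The median of the 5 was 0.64, and 2 were DEGs without FGF1 replicate 9 or vehicle replicate 1.

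Complement genes rose in part, and antigen presentation genes could not be read apart from vehicle replicate 2. Of 14 complement genes, 4 were higher DEGs (among them C1qb, C4b and Serping1), against 1.31% of all genes, with a list median of 0.38. C1qb, a chain of the C1q recognition protein, ran at 33.0 to 46.1 (median 38.2) with FGF1 against 20.1 to 47.5 (median 21.3) with vehicle. The groups overlapped only through vehicle replicate 2, at 47.5. Without that mouse 6 of the 14 were DEGs with a median of 0.66, C1qa joined them at a log2 fold change of 0.74 (from 0.51), and C4b had 0.95 (from 0.66). The call of C4b was lost without FGF1 replicate 4, 6 or 8 or vehicle replicate 1, 3, 4, 5, 6 or 7 (adjusted p up to 0.105 by edgeR). Serping1, the C1 inhibitor, kept its call without FGF1 replicate 5 or 9 or vehicle replicate 1 or 6, and lost it without any other library (adjusted p up to 0.150 by edgeR).

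None of 14 MHC class I genes, 5 MHC class II genes or 26 interferon response genes was a DEG by edgeR, where 3, 1 and 7 had an unadjusted p under 0.05, and DESeq2 called 1 class I gene and 0 of the others. The medians were -0.18, -0.60 and 0.25. H2-M3, named after its values were seen, and Ifi27, an interferon-induced mitochondrial protein, had adjusted p under 0.05 by edgeR, the former lower (-0.49) and the latter higher (0.41). Leaving out FGF1 replicate 3, 4 or 6 or vehicle replicate 6 or 7 made 1 class I gene a DEG. Without vehicle replicate 2 the medians of MHC class I and II changed sign, to 0.18 and 0.78, still with 0 DEGs, and that of the interferon genes was 0.47 with 2 DEGs. The summed level of the 14 class I genes reached 714 in that mouse, where the median control has 265 and treated mice run from 262 to 350.1. Against the diabetic vehicle group, which does not hold this mouse, the medians were 0.09 and 0.63.

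Some genes of lipid transport rose. Of 12 lipid carrier genes, 4 were higher DEGs (Clu, Abca1, Lcat and Fabp7), against 1.31% of all genes. The median of the list was 0.17. Clu, the lipid-binding chaperone clusterin (chr14:65968483-65981547), was counted at 989 to 1111 (median 1060.3) with FGF1 against 547 to 622 (median 573) with vehicle. Abca1, the pump that loads cholesterol onto lipoproteins (chr4:53030787-53159895), ran from 173 to 214 in the 9 mice given FGF1 (median 195) and from 107 to 138 in the 7 vehicle-treated mice (median 115). Lcat, which esterifies cholesterol on those particles, ran at 20.2 to 28.2 (median 24.3) with FGF1 against 10.7 to 15.1 (median 11.9) with vehicle, and neither gene's groups overlapped, at log2 fold changes of 0.71 ± 0.09 and 0.98 ± 0.14. Fabp7, the fatty acid binding protein of glial progenitors and astrocytes, was at 22.8 to 43.1 (median 28.9) with FGF1 against 16.1 to 23.3 (median 19.8) with vehicle, and without FGF1 replicate 1 its log2 fold change was 0.49, under the threshold.

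No gene of 24 for sterol synthesis passed both thresholds by edgeR or DESeq2. At an unadjusted p under 0.05 edgeR gave 19, a count without a share of all genes beside it. Of the 24, 14 lay below all controls in all 9 treated mice, against 1.55% of all genes. In 9 of the 24 the adjusted p was under 0.05 by edgeR and the change was a fall, against 1.40% of all genes, and the median was -0.28. The summed level was 1182 to 1417 (median 1364) with FGF1 against 1625 to 1736 (median 1647) with vehicle, so that no treated mouse reached any control. Leaving out FGF1 replicate 1 made 2 of the 24 DEGs, and leaving out FGF1 replicate 3 or vehicle replicate 6 or 7 made 1. Hmgcs1, the cytosolic synthase that opens the pathway, was at 175 to 209.6 (median 203) with FGF1 against 229.7 to 255 (median 238) with vehicle, although its exons overlap Gm48342 on the other strand. Insig1, the sterol-responsive brake on the pathway, was at 88.8 to 119 (median 108) with FGF1 against 135 to 166 (median 151) with vehicle, Fdft1, squalene synthase, at 79.9 to 107 (median 99.4) with FGF1 against 119 to 131 (median 125) with vehicle, and Msmo1, a methyl sterol oxidase, at 78.0 to 109.7 (median 99.956) with FGF1 against 118 to 142 (median 126) with vehicle. These 3, like Lss, Cyp51, Sqle, Acat2 and Hsd17b7, which also passed on adjusted p, are named after their values were seen. Of 11 fatty acid synthesis genes 0 were DEGs by edgeR or DESeq2 and 5 had an unadjusted p under 0.05, of which 4 were lower by adjusted p (Acly, Scd1, Scd2 and Fads1, of which Scd2 follows the naming rule). Scd2, the main stearoyl-CoA desaturase of brain, ran from 1412 to 1852 in the 9 mice given FGF1 (median 1715) and from 1865 to 2114 in the 7 vehicle-treated mice (median 1951). The treated mice all lay below the controls, with a log2 fold change of -0.26 ± 0.06 (adjusted p = 0.00331 by edgeR).

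Vessel and barrier genes moved singly. Of 19 genes of brain endothelium, Ly6a and Vwf were higher and Mfsd2a lower, with a list median of 0.23. Vwf, the clotting protein stored by endothelium, was at 20.3 to 39.3 (median 30.8) with FGF1 against 14.8 to 22.1 (median 17.8) with vehicle, and Ly6a, a membrane antigen of endothelium, at 16.2 to 27.9 (median 18.7) with FGF1 against 11.1 to 16.3 (median 13.96) with vehicle. Mfsd2a, the transporter of docosahexaenoic acid that limits transcytosis at the barrier, ran from 19.5 to 28.5 in the 9 mice given FGF1 (median 24.9) and from 23.04 to 40.7 in the 7 vehicle-treated mice (median 36.8). The groups overlap through vehicle replicate 2, the lowest control at 23.04, and the log2 fold change of -0.53 ± 0.11 came within the threshold without vehicle replicate 7 or FGF1 replicate 6 or 9 (-0.49). None of 11 mural cell genes was a DEG by edgeR or DESeq2 or had an unadjusted p under 0.05, with a median of -0.01. Slc38a5, a transporter of glutamine and other neutral amino acids, was a DEG at 2.95 to 9.02 (median 3.73) with FGF1 against 1.07 to 2.62 (median 1.41) with vehicle. The tissue plasminogen activator Plat, the 1 DEG of 16 matrix protease genes (median 0.14, with 2 DEGs without FGF1 replicate 9), ran at 69.3 to 90.2 (median 81.0) with FGF1 against 43.9 to 57.3 (median 54.2) with vehicle, and Timp2, the most abundant of that list per length, at 367 to 384 (median 376) with FGF1 against 391 to 439 (median 406) with vehicle.

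Genes of meningeal fibroblasts varied widely between mice of both groups. All 15 had a log2 fold change above 0, with a median of 0.79. Higher DEGs were 4 of the 15 (Lum, Slc6a13, Igf2 and Islr), against 1.31% of all genes. The summed level was 129 to 536 (median 313) with FGF1 against 77.4 to 287 (median 186) with vehicle, with 7 of 9 treated mice above all controls. Mgp, a matrix protein and the most abundant of them per length, was at 9.20 to 40.3 (median 28.2) with FGF1 against 5.49 to 28.1 (median 17.2) with vehicle and was not a DEG. Igf2, a growth factor of the meninges (chr7:142650766-142666816) whose exons overlap Igf2os and Gm49394, ran from 26.9 to 105 in the 9 mice given FGF1 (median 60.9) and from 9.05 to 49.0 in the 7 vehicle-treated mice (median 24.5). The lowest values were those of vehicle replicates 2 and 3 (9.54 and 9.05) and, among treated mice, of FGF1 replicate 9, while FGF1 replicate 6 was the highest. The same 4 mice stood at the ends for Islr, an immunoglobulin-like secreted protein that overlaps Islr2, and for Lum, a proteoglycan of collagen fibrils. The calls of Lum, Islr and Slc6a13, a GABA transporter of the leptomeninges, were lost without FGF1 replicate 2, 4, 6, 7 or 8 or vehicle replicate 2, 3, 4 or 5, those of Lum and Islr also without vehicle replicate 7, that of Lum without vehicle replicate 6 and that of Islr without FGF1 replicate 1 (adjusted p up to 0.137 by edgeR). With the 23 libraries of Day 5 alone 8 of the 15 were DEGs, and against diabetic vehicle 2. How much meninges each dissection carried was not tested.

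The lists for the pathway of the injected factor held no DEG after 5 days. None of 12 genes for FGF receptors and ligands was a DEG by edgeR or DESeq2, and 2 had an unadjusted p under 0.05. The median log2 fold change of the 12 was 0.00, with a range from -0.19 to 0.44. In all 9 treated mice 2 of the 12 lay above and 1 below all controls, against 2.38% and 1.55% of all genes. Fgf1 itself ran from 135 to 152 in the 9 mice given FGF1 (median 144) and from 132 to 159 in the 7 vehicle-treated mice (median 138), so that the groups overlapped fully. Of 20 feedback and target genes of ERK signalling, 0 were DEGs by edgeR or DESeq2 and 1 had an unadjusted p under 0.05, with a median of 0.00 where the same list had 1.15 on Day 1, and Spred1, an inhibitor of the cascade, was at 235 to 275 (median 250.3) with FGF1 against 218 to 254 (median 239) with vehicle. That 1 was Ccnd1, a cyclin named after its values were seen, with a log2 fold change of 0.42. Of 22 immediate early genes none was a DEG by edgeR or DESeq2 and 1 had an unadjusted p under 0.05, with a median of 0.01 against 1.03 on Day 1, and Klf6 stood at 56.1 to 70.3 (median 62.9) with FGF1 against 59.3 to 67.7 (median 63.8) with vehicle. Fgfbp3, which carries FGFs in the matrix, was among the lower DEGs at 2.83 to 5.95 (median 3.97) with FGF1 against 5.41 to 8.08 (median 6.56) with vehicle.

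A few genes of cytokine and BMP signalling rose. Of 16 genes of the STAT3 and cytokine list, Osmr and Il6st were higher DEGs, with a median of 0.13. Il6st, the shared receptor chain gp130 (chr13:112464070-112510086), ran from 196 to 236 in the 9 mice given FGF1 (median 211) and from 134 to 161 in the 7 vehicle-treated mice (median 155). The groups were apart, but the log2 fold change of 0.51 ± 0.07 fell to 0.48, under the threshold, without vehicle replicate 5, and to 0.49 without vehicle replicate 3 or FGF1 replicate 6. Of 21 genes of the BMP and TGF-beta response, Id3 and Tgfb3 were DEGs and 19 had a log2 fold change above 0, with a median of 0.22. Id3, an inhibitor of helix-loop-helix factors and a direct BMP target (chr4:136143497-136145755), was counted from 39.4 to 51.5 in the 9 mice given FGF1 (median 46.9) and from 18.8 to 26.8 in the 7 vehicle-treated mice (median 20.8). No treated mouse overlapped the controls, at a log2 fold change of 1.09 ± 0.18 (adjusted p = 4.56e-05 by edgeR). Tgfb3, a TGF-beta ligand whose exons overlap Gm37804 and Gm48008, was at 11.2 to 14.3 (median 13.3) with FGF1 against 6.36 to 10.6 (median 8.70) with vehicle. Of 11 genes of the IGF family and its binding proteins none was a DEG by edgeR or DESeq2 and 1 had an unadjusted p under 0.05, with a median of 0.08.

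To see whether the higher genes share the STAT recognition motif TTCNNNGAA, it was searched on both strands in RefSeq promoters (GRCm38.p6), from 250 bases before to 50 after the gene start of RefSeq, which for Gfap and Emp1 lies inside the limits that GENCODE gives the gene. It was found in 8.47% of 27025 promoters, in 6.60% of the 11167 that belong to genes of the table, in 9 of the 136 found for higher DEGs (6.62%) and in 0 of 25 for lower DEGs. Among 10 reactive astrocyte genes it was found in 1, Gfap, and among the 14 promoters found for the STAT3 and cytokine list in 3 (21.4%). The promoters of Gfap (chr11:102897151-102897450, minus strand) and of Emp1 (chr6:135362681-135362980, plus strand) are shown, with the motif in capitals. They are those of 2 reactive astrocyte DEGs that hold it, and may not be the only ones. Whether the promoter of the reactive astrocyte DEG Cd14 holds it is not given here. A match is a run of letters and not a measured binding site.
Gfap: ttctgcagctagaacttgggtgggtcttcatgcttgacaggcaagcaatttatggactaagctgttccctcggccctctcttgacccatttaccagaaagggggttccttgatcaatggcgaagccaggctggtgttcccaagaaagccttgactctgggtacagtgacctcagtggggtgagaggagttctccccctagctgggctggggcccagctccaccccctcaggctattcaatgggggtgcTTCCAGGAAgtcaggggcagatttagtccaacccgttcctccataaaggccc
Emp1: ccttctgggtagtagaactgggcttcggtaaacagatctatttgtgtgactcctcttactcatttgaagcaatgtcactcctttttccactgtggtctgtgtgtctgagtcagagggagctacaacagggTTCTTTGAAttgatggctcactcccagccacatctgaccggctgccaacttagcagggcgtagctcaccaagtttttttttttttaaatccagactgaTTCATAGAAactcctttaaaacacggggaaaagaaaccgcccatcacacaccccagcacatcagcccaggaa

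The lists of neuronal genes held no DEG in the fit of all 47 libraries, and most pan-neuronal genes lay slightly below 0. None of 15 pan-neuronal genes, 23 hypothalamic transcription factors, 29 neuropeptides, 18 metabolic hormone receptors, 14 genes for transmitter synthesis and loading, 12 genes of neurons of neighbouring regions or 2 pituitary genes was a DEG by edgeR or DESeq2. At an unadjusted p under 0.05 edgeR gave 2, 1, 2, 1, 2, 6 and 0 in that order, without a share of all genes to set them against. Leaving out FGF1 replicate 3 or vehicle replicate 1 or 2 made 1 neuropeptide gene a DEG, and 3, 2 and 1 genes of neighbouring regions, and with the 23 libraries of Day 5 alone 1 transcription factor and 2 genes of neighbouring regions were DEGs. The median of the pan-neuronal genes was -0.13, and 3 of 15 had a log2 fold change above 0. Uchl1, an abundant neuronal hydrolase, was at 536 to 603 (median 577) with FGF1 against 583 to 690.2 (median 614) with vehicle, with 5 treated mice below all controls. The neuropeptides had a median of -0.09, the hormone receptors of 0.04, the transcription factors of 0.07, the transmitter genes of -0.07, the genes of neighbouring regions of -0.23 and the pituitary genes of 0.44. Npy, the orexigenic peptide of Agrp neurons, ran at 26.3 to 45.1 (median 35.1) with FGF1 against 20.4 to 60.9 (median 35.4) with vehicle, Avp, vasopressin, at 78.4 to 261 (median 192) with FGF1 against 144 to 315 (median 224) with vehicle, and Calcr, the calcitonin receptor, at 30.8 to 43.3 (median 34.5) with FGF1 against 29.2 to 41.6 (median 33.5) with vehicle. In all 3 the groups overlapped, as they did for the transcription factor Isl1 at 16.9 to 23.6 (median 21.4) with FGF1 against 16.2 to 25.9 (median 23.01) with vehicle and for the study's Mef2c at 79.3 to 96.7 (median 86.6) with FGF1 against 80.1 to 109 (median 97.3) with vehicle.

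Genes that fell were few and of varied function. Kirrel2, an adhesion protein of the immunoglobulin superfamily (chr7:30447534-30457690), ran from 0.977 to 2.55 in the 9 mice given FGF1 (median 1.73) and from 2.74 to 6.96 in the 7 vehicle-treated mice (median 5.56). All of the treated mice lay below the lowest control, vehicle replicate 2, and the log2 fold change was -1.68 ± 0.21. The non-coding RNA 2900052N01Rik (chr9:46913493-46927366) was at 20.4 to 29.0 (median 23.6) with FGF1 against 46.0 to 72.8 (median 62.5) with vehicle, again without overlap. Slc13a5, the sodium-coupled citrate transporter, whose exons overlap 1700051A21Rik, was at 3.51 to 7.44 (median 6.0003) with FGF1 against 8.75 to 16.2 (median 13.7) with vehicle, and Itih3, a heavy chain that binds hyaluronan and is made by astrocytes (chr14:30908572-30923760), at 249.7 to 328 (median 309) with FGF1 against 465 to 574 (median 505) with vehicle. Gipr, the receptor for the incretin GIP, was counted at 0.752 to 2.33 (median 1.63) with FGF1 against 2.55 to 3.74 (median 3.18) with vehicle, and Il12rb1, a chain of the receptors for interleukins 12 and 23, at 0.439 to 1.28 (median 0.846) with FGF1 against 1.54 to 2.41 (median 1.79) with vehicle, low counts whose groups did not overlap. The cold-inducible RNA-binding protein Rbm3 (chrX:8138975-8145880, overlapped by Rbm3os) ran from 45.4 to 83.4 in the 9 mice given FGF1 (median 78.9) and from 112 to 134 in the 7 vehicle-treated mice (median 121). Its relative Cirbp, named after its values were seen, ran at 54.4 to 101 (median 83.8) with FGF1 against 117 to 137 (median 132) with vehicle, so that no treated mouse reached a control for either gene, at log2 fold changes of -0.84 ± 0.10 and -0.66 ± 0.11. Scn4b, a sodium channel subunit at 16.8 to 51.8 (median 29.2) with FGF1 against 31.8 to 77.4 (median 53.4) with vehicle, lost its call without FGF1 replicates 1, 2, 4, 5, 6, 7 or 8 or any vehicle replicate but 2 (adjusted p up to 0.140 by edgeR). The striatal gene Ppp1r1b had a log2 fold change of -0.91 (adjusted p = 0.139 by edgeR), and the part of dissection in Scn4b was not tested. Among low-count genes, 4931423N10Rik lost it without vehicle replicate 3 (0.0885), 2610028E06Rik without vehicle replicate 5 (0.0556) and Tbc1d10c without vehicle replicate 3 or 6 or FGF1 replicate 9 (up to 0.0979, each by edgeR).

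A few glucocorticoid-responsive genes fell. Of 16, 2 had a log2 fold change above 0, where 47.8% of all genes do, with a median of -0.33, and Hsd11b1 and Arl4d were lower DEGs. Hsd11b1, which regenerates active glucocorticoid inside cells (chr1:193221634-193264075), ran from 4.52 to 7.59 in the 9 mice given FGF1 (median 5.64) and from 10.6 to 19.1 in the 7 vehicle-treated mice (median 11.3). The groups did not overlap, at a log2 fold change of -1.14 ± 0.14 (adjusted p = 8.72e-08 by edgeR). Tsc22d3, the glucocorticoid-induced leucine zipper, was at 124 to 245 (median 144) with FGF1 against 170.4 to 245 (median 212) with vehicle, and 8 of 9 treated mice lay below all controls while FGF1 replicate 4 had 245. Without that mouse 5 of the 16 were DEGs, and without vehicle replicate 2 there were 4. Tsc22d3 was among the 5 at -0.56, and Arrdc2, an arrestin-like lower DEG at 10.4 to 25.1 (median 13.4) with FGF1 against 16.02 to 30.6 (median 26.2) with vehicle, also had its highest treated value in it. The call of Arl4d, a small GTPase, was lost without FGF1 replicate 1, 2, 5, 6, 7, 8 or 9 or vehicle replicate 3, 4, 5, 6 or 7 (adjusted p up to 0.0901 by edgeR). Of 17 clock genes none was a DEG by edgeR or DESeq2 and 6 had an unadjusted p under 0.05, and the summed level was 1239.5 to 1313 (median 1280.0) with FGF1 against 1335 to 1431 (median 1364) with vehicle. Tef, a clock-controlled leucine zipper factor, at 314 to 351 (median 343) with FGF1 against 377 to 413 (median 388) with vehicle, and Cry1, a repressor of the clock named after its values were seen, at 20.4 to 25.2 (median 22.98) with FGF1 against 26.4 to 36.0 (median 29.3) with vehicle, were lower by adjusted p, and the clock median was -0.11. The study's methods place the dissections in the morning, and the part of the hour in these values was not tested.

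Some cell cycle genes rose, and the lists of general cell functions held no DEG in the fit of all 47 libraries. Of 27 cell cycle genes, Mki67, Cenpf and Tk1 were higher DEGs, against 1.31% of all genes, 10 further genes of the list, such as Top2a and Cdk1, are not in the table, and the median was 0.01. Mki67, the nuclear protein of dividing cells, ran from 3.76 to 10.9 in the 9 mice given FGF1 (median 5.54) and from 0.905 to 3.53 in the 7 vehicle-treated mice (median 2.52). These low counts did not overlap, while Pcna, the sliding clamp of replication, was at 28.7 to 33.8 (median 32.5) with FGF1 against 28.8 to 34.1 (median 31.4) with vehicle. The call of Cenpf was lost without FGF1 replicate 2, 4, 6, 7, 8 or 9 or vehicle replicate 1, 3, 4, 5 or 6, and that of Tk1, whose exons overlap Afmid, without FGF1 replicate 3, 4, 5, 8 or 9 or vehicle replicate 2, 3, 4, 5 or 6 (adjusted p up to 0.114 by edgeR). None of 80 ribosomal protein genes and 79 respiratory chain genes was a DEG by edgeR or DESeq2, with medians of -0.05 and -0.08. At an unadjusted p under 0.05 edgeR gave 4 and 20, without a share of all genes to set them against. Of the respiratory chain genes 10 had a log2 fold change above 0, where 47.8% of all genes do. In all 9 treated mice 6 of the 79 lay below and 0 above all controls, against 1.55% and 2.38% of all genes. The summed level of the 79 was 8955 to 9971 (median 9580) with FGF1 against 9849 to 10631 (median 10293) with vehicle, with 8 of 9 treated mice below all controls. Ndufa9 and Ndufb9 of the respiratory chain, named after their values were seen, were lower by adjusted p at -0.16 and -0.32. None of 20 glycolysis genes was a DEG by either tool and 3 had an unadjusted p under 0.05, with a median of -0.06. Of the 20, 3 lay below and 1 above all controls in all 9 treated mice. Their summed level was 5944 to 6498 (median 6352) with FGF1 against 6549 to 6931 (median 6704) with vehicle, so that no treated mouse reached a control. Pygb, a glycogen phosphorylase named after its values were seen, was higher by adjusted p (0.23), under the fold threshold, and Pkm, pyruvate kinase, lay below all controls in all treated mice at 1166 to 1314 (median 1241) with FGF1 against 1333 to 1467 (median 1373) with vehicle (adjusted p = 0.522 by edgeR). By exact permutation, which does not use the spread of other days, the unadjusted p of Pkm was 8.74e-05.

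Stress genes lay slightly above 0 without DEGs by edgeR or DESeq2. All 17 heat shock genes had a log2 fold change above 0, with a median of 0.11, and Hsph1, Chordc1 and Ahsa1 had adjusted p under 0.05 by edgeR, of 8 with an unadjusted p under 0.05, and 1 was a DEG without FGF1 replicate 3. Of 25 genes of the endoplasmic reticulum and the integrated stress response, Pdia4, Calr and Sdf2l1 did, of 6 with an unadjusted p under 0.05, with a median of 0.07. These 6 are named after their values were seen. Mt1, the most abundant of 5 metallothionein genes per length (median 0.31), ran at 194 to 278 (median 231) with FGF1 against 141 to 210.0 (median 173) with vehicle and did not pass (adjusted p = 0.283 by edgeR, unadjusted exact permutation p = 0.00035), and 2 of the 5 had an unadjusted p under 0.05 by edgeR. The 7 genes of the perineuronal net had a median of 0.09, none of them a DEG and 1 with an unadjusted p under 0.05, with Bcan, the lectican brevican, at 177 to 229 (median 197) with FGF1 against 174 to 188 (median 181) with vehicle.

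**Figure D3:**
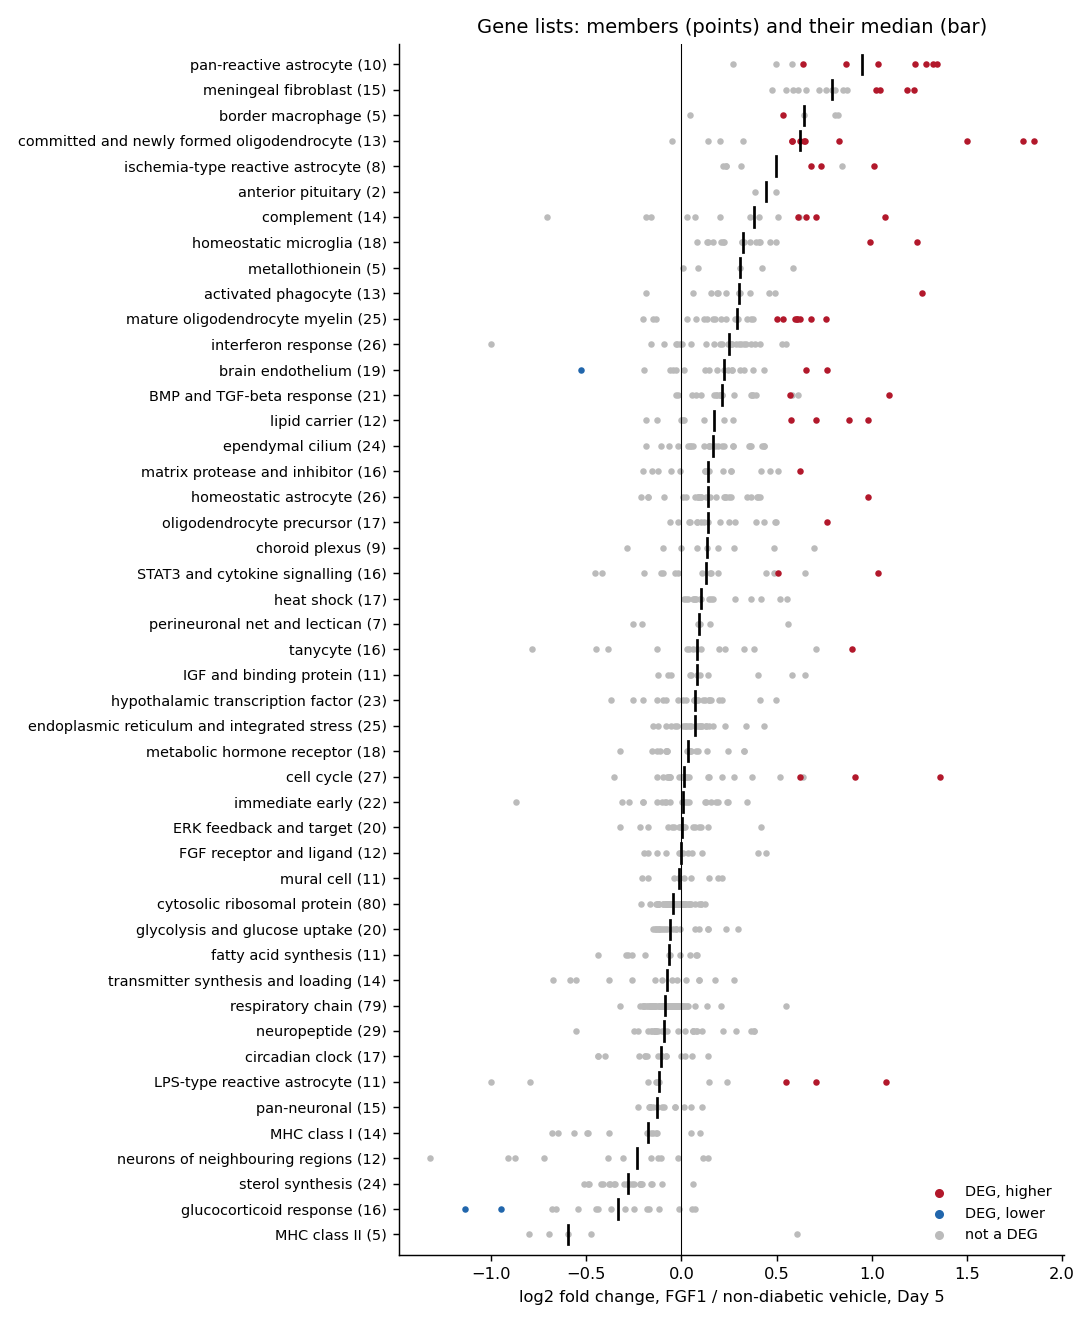
Log2 fold changes between FGF1-treated and non-diabetic vehicle-treated mice of Day 5 for the members of 47 gene lists, with 1 point a gene, red for higher and blue for lower DEGs, and the list's median as a bar. The lists are ordered by median, from 0.95 for reactive astrocyte genes to -0.60 for MHC class II genes, and numbers in brackets are the members in the table. The medians of the MHC lists change sign without vehicle replicate 2.

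No gene passed both thresholds between the 2 control groups. Between diabetic and non-diabetic vehicle-treated mice of Day 5, 0 genes (0%) were DEGs by edgeR, with 193 genes at an unadjusted p under 0.05 and a smallest adjusted p of 0.787, or 879 and 0.315 with the 23 libraries of Day 5 alone. DESeq2 gave 0 as well, with 164 at an unadjusted p under 0.05 and a smallest adjusted p of 0.0631. Against the diabetic vehicle group, which shares the 9 FGF1-treated mice with the comparison above, 406 genes (2.85%) were DEGs by edgeR, 335 of them higher (2.36%) and 71 lower (0.499%). The values of both comparisons lay side by side for A2m (1.96 against non-diabetic and 1.73 against diabetic controls), Enpp6 (1.499 and 1.79) and Hsd11b1 (-1.14 and -1.21). They were farther apart for C1qa (0.51 and 0.82), Ctss (0.32 and 0.68) and B2m (0.05 and 0.51), which in the fit of all 47 libraries were DEGs against the diabetic group and not the other. With the 23 libraries of Day 5 alone C1qa also passed against the non-diabetic group (log2 fold change 0.51, adjusted p = 0.00543 by edgeR). Of the lists without a DEG above, some held DEGs against the diabetic group, namely interferon response (5), ependymal cilium (4), clock and sterol synthesis (2 each) and MHC class I, IGF, heat shock and endoplasmic reticulum genes (1 each), and homeostatic microglia held 11 where they held 2, glucocorticoid response 5 (2), oligodendrocyte precursors 3 (1), border macrophages 2 (1) and tanycytes 2 (1). With the 23 libraries of Day 5 alone and non-diabetic controls, 2 interferon genes and 1 gene each of the MHC class II, choroid plexus, heat shock, metallothionein, perineuronal net and respiratory chain lists were DEGs, and the lists of the cell cycle held 5 (3 above), of glucocorticoid response 4 (2), of oligodendrocyte precursors 3 (1) and of border macrophages 3 (1). The calls of Lum, Islr, Slc6a13, Serping1, Tk1, Scn4b and 2610028E06Rik were not reached against the diabetic group, nor was that of Plat, whose log2 fold change was 0.4999.

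Day 5 differed from Day 1 in which glial genes were high. A test of the difference between the FGF1 effects of the days called 2247 genes (15.8%), 1035 of them with a larger effect on Day 5 (7.28%) and 1212 with a smaller (8.52%). With DESeq2 the balance turned, at 1197 larger and 1099 smaller. All 8 ischemia-type and 9 of 10 pan-reactive astrocyte genes had a smaller effect on Day 5, their medians having been 2.58 and 3.31 on Day 1. Of the committed and newly formed oligodendrocyte genes 7 had a larger and 1 a smaller effect on Day 5, and of the myelin genes 16 and 4, with a Day 1 median of -0.56. Enpp6, at -1.43 on Day 1 and 1.499 on Day 5, changed direction (adjusted p of the difference 5.08e-10 by edgeR). A2m did not differ between the days by this test, at 2.04 and 1.96, and neither did Kirrel2 (-1.64 and -1.68) or Slc13a5 (-1.36 and -1.27). The days differ in mice and in preparation code, which cannot be told apart from time.

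Besides those given with their values, some genes named above have exons that overlap another gene, so that their counts could include its reads. Among DEGs these are Bmp4 (with Gm15217), Fcgr2b (Gm38204), Cnp (Dnajc7), Cryab (Hspb2), Nkx2-2 (Nkx2-2os), Sirt2 (Nfkbib) and Tbc1d10c (AC109138.8). The others are Agrp, Ahsa1, Ccnd1, Cd74, Csf1r, Cx3cr1, Cyp51, Enpp2, Fdft1, Lss, Ndufa9, Ndufb9, P2ry12, Pdgfra, Pdia4, Pkm, Pmch, Ppp1r1b, Scd2, Tef, Tnr and Uchl1.

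Among the 9 FGF1-treated mice, Gfap and Vim rose and fell together. Of 6 pairs of genes examined for this, Gfap and Vim had a Pearson r of 0.916 (exact permutation p = 0.00038, adjusted 0.00228) and a Spearman rho of 0.883 (exact permutation p = 0.00308, adjusted 0.0185). Without the 2 mice farthest from the median of Gfap, r was 0.775. Both genes were highest in FGF1 replicate 6 and lowest in FGF1 replicate 9, which are also the ends for the meningeal genes Igf2, Islr and Lum, whose part in the relation was not tested. For Gfap and Aqp4 r was 0.764 (exact permutation p = 0.0165, adjusted 0.0495) and rho 0.75 (exact permutation p = 0.0255, adjusted 0.0765). Without the 2 farthest mice r was 0.614, so that it was lower without them for both pairs. Gfap with Serpina3n, Gpr17 or Bmp4, and Gpr17 with Bmp4, had adjusted exact permutation p of 0.128 or more for r. Without the 2 deepest libraries, FGF1 replicates 8 and 9, only the r of Gfap and Vim had an adjusted p under 0.05 (0.885, adjusted exact permutation p = 0.0345). Their rho was then 0.821, with an adjusted exact permutation p of 0.144. All 9 libraries share 1 preparation code. Pairs among FGF1 replicates 1 to 3 differ by a chi-square per degree of freedom of 1.66 to 1.75 over all genes, and all other pairs by 2.23 to 12.5. A pair of vehicle libraries, replicates 5 and 6, differed by 1.79. The measure adds up raw counts, so genes with high counts can weigh much in it. Lars2, described below, had 247 normalized counts or fewer in FGF1 replicates 1 to 3 and 2333 or more in replicates 4 to 9. Neither the part of Lars2 in the likeness of replicates 1 to 3 nor the part of that likeness in the relations was tested.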

How the data were processed

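Sequencing of mRNA from 47 hypothalami gave 1 library per mouse, and the authors aligned the reads with STAR and deposited a table of raw counts per gene, in whole numbers. Labels name the genome GRCh38, which is a human build, for mouse samples, so coordinates are GENCODE's for mouse GRCm38, where 14180 genes were found by name. The counting program, its strand setting and any gene filter are not stated. All libraries were fitted with edgeR 4.0.16 under R 4.3.3 (TMM factors, 1 mean for each of 7 groups, quasi-likelihood F test) with p-values adjusted by Benjamini-Hochberg over 14221 genes. No gene was removed by filterByExpr. SE is the log2 fold change over the root of F. Levels of 116 named genes, as log2(CPM + 0.5), were also put to exact permutation, counting both directions, and 92 had p under 0.05, a count set in part by choosing genes for their fold change. Programs were tested on simulated data. Named genes are the 20 highest and 15 lowest DEGs by log2 fold change, up to 4 DEGs and the most abundant gene of each list, and those the study names, and not all of them are shown. Of 48 lists, 1 (lymphocytes and neutrophils) had no gene in the table. Members and lists were chosen with earlier results of these data known, and lists were not tested as sets. Alternatives were DESeq2 1.42.0, other factors, filters, libraries and thresholds, limma 3.58.1, thinning, the other vehicle group and each mouse left out. Intervals and errors rest on the spread between mice, with 1 CPM standing for at least 7.98 counts.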

Additional observations from a re-analysis of the deposited data

Results flagged for a closer look

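Within 1 group of Day 5, 234 series were examined, each of a gene or of the total counts. Of these, 19 held a mouse far from the rest, by the gap to its neighbour as a share of the group's range. Chance alone places about 1 in 20 series there. Vehicle replicate 2 of the non-diabetic group accounts for 10 of the 19. It was the highest of 7 for Ctss (gap share 0.953), B2m (0.931), Cd74 (0.923), C1qa (0.916), H2-D1 (0.916), C1qb (0.862), C4b (0.732) and Ifi27 (0.707), and the lowest for Mfsd2a (0.626) and Kirrel2 (0.590). H2-D1, an MHC class I heavy chain, had 156 normalized counts in it. Vehicle replicate 1 was the highest control for Lcat (0.668) and Olfml3 (0.610), and vehicle replicate 6 for Jak2 (0.696). FGF1 replicate 4 was the highest treated mouse for Tsc22d3 (0.661), Neu4 (0.546), Calcr (0.531) and Arrdc2 (0.516). FGF1 replicate 6 was the highest for B2m (0.494) and FGF1 replicate 9 the lowest for Tef (0.521).

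Of the 116 named genes, 54 had an FGF1 effect that differed between Day 5 and Day 1 by edgeR (log2 effect of Day 5 minus that of Day 1), 28 with a larger and 26 with a smaller value on Day 5, and not all are shown. Among glial genes the difference was positive for Enpp6 (2.93), Gpr17 (2.86), Mal (2.23), Neu4 (2.01), Bmp4 (1.61), Cldn11 (1.47), Enpp2 (1.43), Gpr50 (1.34), Sparcl1 (0.98), Ugt8a (0.86), Bcan (0.72) and Aqp4 (0.66). It was positive too for the lipid genes Abca1 (1.23), Apoe (0.66) and Lcat (0.59). So it was for the fibroblast and vessel genes Slc6a13 (3.73), Igf2 (2.94), Islr (1.49) and Vtn (0.85), and for Fbln5 (2.47) and Serping1 (0.84) of the LPS-type reactive astrocyte list. Other larger values were those of Dnajb13 (2.34), Pyroxd2 (1.74), Tsc22d3 (0.91), Id4 (0.57) and Fgf1 (0.56). The difference was negative for other reactive astrocyte genes, Timp1 (-6.23), Emp1 (-2.94), Serpina3n (-2.61), Vim (-2.44), Osmr (-2.27), S100a10 (-2.24), Cd109 (-2.10), Gfap (-1.52), Cd14 (-1.24), Aspg (-0.93) and Ggta1 (-0.83). Myeloid and cell cycle genes with a negative difference were Fcgr2b (-2.21), Capg (-1.45), Fcrls (-0.59), Mki67 (-1.54), Tk1 (-0.85) and Pcna (-0.64). The others were Klf6 (-1.31), Mt1 (-1.05), Igfbp5 (-0.99), Plat (-0.81), 2900052N01Rik (-0.72), Spred1 (-0.70), Rbm3 (-0.62), Slc2a1 (-0.60) and Hmgcs1 (-0.51). Day and preparation code cannot be told apart in these differences.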

How the results depend on the processing

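The 219 DEGs became 228 with DESeq2, of which 213 were shared, 213 with its size factors, 220 with upper-quartile factors and 187 without the 2 deepest FGF1 libraries, of which 170 were shared. The count rose to 370 with the 23 libraries of Day 5 alone, 372 with the 16 libraries of the 2 groups, 371 with Day 5 thinned to the lowest total and 438 with limma voom and quality weights. It was 406 against diabetic vehicle (188 shared), 372 with both vehicle groups merged, 661 without a fold threshold, 40 above a log2 fold change of 1, and 140 with at least 10 counts in every library, where 10973 genes were tested. Why the count moved was not tested. Leaving out each mouse gave 169 (vehicle replicate 3) to 250 (vehicle replicate 2), and 44 to 67 DEGs among list genes, 60 with all mice. That count was 89 with the 23 libraries of Day 5 alone and 90 against diabetic vehicle. No value of a named gene changed direction past the threshold, and 150 single calls were lost and 4 gained over all mice left out in turn. Without the 2 deepest libraries 13 calls were lost. The relations with an adjusted p under 0.05 fell from 2 to 1 there. Day 5 minus Day 1 gave 2247, and 2141 to 2296 under alternatives. The alternatives for the Day 1 difference with fewer libraries, for DESeq2 on the vehicle groups and for levels of single genes were chosen after seeing the data. No paired analysis was possible because replicate numbers join no 2 mice. Of genes with few counts, Timp1 lost its call in 12 of 21 alternatives and Bmp4 in 0. The part of depth in this was not tested.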

Other observations

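Lars2, the mitochondrial leucyl-tRNA synthetase, named after its values were seen, ranged widely in each group and was not a DEG (log2 fold change 1.43 ± 0.69, adjusted p = 0.282 by edgeR). Its normalized counts ran from 89.8 to 8824 in the 9 mice given FGF1 (median 2793) and from 58.4 to 6298 in the 7 vehicle-treated mice (median 185). In the diabetic vehicle group they ran from 273 to 2232 (median 739.8). FGF1 replicates 4 to 9 had 2333 or more and replicates 1 to 3 had 247 or fewer, while among the controls vehicle replicate 1 had 6298 and the next, replicate 2, had 883. Whether the reads came from the transcript was not tested.

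A further 4 DEGs in no list are named after their values were seen. Nnat, the imprinted proteolipid neuronatin of brain, was at 749 to 986 (median 869) with FGF1 against 465 to 514 (median 478) with vehicle, with no overlap. Slc7a11, the cystine and glutamate exchanger of astrocytes, ran at 185 to 326 (median 210.0) with FGF1 against 99.7 to 136 (median 114) with vehicle. Cst3, the secreted protease inhibitor cystatin C, was at 926 to 1067 (median 983) with FGF1 against 647 to 721 (median 691) with vehicle, and S100a6, a calcium-binding protein, at 14.7 to 21.2 (median 19.0) with FGF1 against 7.87 to 13.4 (median 11.8) with vehicle. In each of these 4 genes all 9 treated mice lay above all 7 controls, at log2 fold changes of 0.86, 0.93, 0.53 and 0.64. Of the 219 DEGs, 129 higher and 30 lower belong to no list. By annotation, 184 of the higher and 30 of the lower DEGs are protein-coding, and 46 and 7 overlap exons of a gene on the other strand.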
